A study of Solanum lycopersicum with 9 samples.

Results

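In ripening tomato fruit, 100 genes of the 21326 genes that the array names singly were chosen by their measured signals, as those abundant at the turning and pink stages and lower both before and after. For each gene the gap was the lowest log2 signal on the 4 turning and pink arrays minus the highest on the 5 breaker and red ripe arrays. Where several probe sets stood for a gene, the one with the largest gap was kept, and the 100 genes with the largest gaps formed the group, called peak genes here. The choice rests on the measured values, so the height of the peak is given as a description and carries no test.

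The fruit came from wild-type plants of the tomato cultivar Ailsa Craig, grown hydroponically in an open greenhouse, and every stage shares this genotype and growth. Stages run from breaker, when the first colour shows, through turning and pink to red ripe, and RNA was hybridised to Affymetrix tomato gene arrays, with 2 arrays each at breaker, turning and pink and 3 at red ripe. The labels name pericarp as the tissue, whereas the methods speak of fruit tissue and in one sentence of abscission zones, and labels and methods name different RNA kits. The methods describe the replicates as biological and independent, 2 per stage, whereas 3 red ripe arrays were deposited. No label says whether replicate arrays hold separate fruits or plants, and the p-values below measure the spread between these arrays.

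The deposited values are log2 signals, 0.65 to 12.27 over 67795 probe sets, and a difference of 1 on this scale is a 2-fold change. Array medians were 1.94 to 2.01 on the turning and pink arrays and 1.78 to 1.84 on the breaker and red ripe arrays. Over all probe sets the median difference between these stages was 0.12, against 1.67 for the peak genes, and after centring each array on its median it was -0.03, against 1.52. The part of this shift in the pattern was not tested. Markers gave a mixed check of the tissue. Of 14 ripening pericarp genes 9 were matched by symbol, and the others may still be on the array. PG2, a fruit polygalacturonase, had 9.09 to 11.44 and LOXB, a fruit lipoxygenase, 10.62 to 10.96. Psy1 had 7.99 to 10.26, loxC 8.15 to 9.37 and TDR4 7.38 to 9.68. ACS2 had 3.0 to 6.23, PME1.9 only 3.0 to 3.85 and ACO1 only 1.31 to 1.82. EXP1, a ripening expansin, had 1.12 to 1.74 at turning and pink, against 4.3 to 5.13 at breaker and red ripe. Of 6 abscission zone genes 3 were matched, TAPG2 at no more than 1.25, TAPG4 at 1.05 to 2.94 and Cel1 at 2.95 to 6.99. TPRP-F1 of locular tissue lay between 1.10 and 2.30, and 0 of 3 pollen genes were matched. In such bulk tissue, fewer cells of a type cannot be told apart from less RNA per cell.

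Heat shock proteins are chaperones that hold or refold proteins which have lost their shape. The small ones bind unfolding proteins and keep them from clumping in the cytosol, the endoplasmic reticulum, mitochondria or plastids, and heat stress transcription factors switch their genes on. Several are also made without heat as tomato fruit ripens, a time when chloroplasts turn into chromoplasts, chlorophyll and photosynthetic proteins are dismantled and carotenoids build up.

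The group was led by a small heat shock protein and spanned a wide range of peak heights. Gaps ran from 0.58 to 3.77 with a median of 0.93, and 45 of the 100 genes had a gap over 1. As the difference between the mean of the turning and pink means and the mean of the breaker and red ripe means, the peak was 1.96-fold to 23.4-fold, with a median of 3.22-fold, in the 93 genes with at least 1 breaker or red ripe signal not below the 75th percentile of its array. In the other 7 genes the breaker and red ripe signals cannot be told apart from background, and the fold is not certain. Some of the 93, LOC101267774 among them, also had breaker or red ripe signals below that percentile, and their folds are uncertain too. A gap above 0 was found in 1235 of 21326 genes (5.79%), and one above 1 in 0.211%. The opposite pattern, with every turning and pink array below every breaker and red ripe array, was found in 5479 genes (25.7%), and by more than 1 in 4.54%. At the edge of the group, the genes ranked 96 to 100 were LOC101262727 and LOC101246508 with gaps of 0.59 and LOC101254738, LOC101251620 and LOC101252660 with gaps of 0.58. Just outside were LOC101266462 with a gap of 0.57, LOC101262473, LOC101254206 and LOC101244602 with 0.56, and LOC101246122 with 0.55, so the bound falls in a smooth slope.

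**Figure D1:**
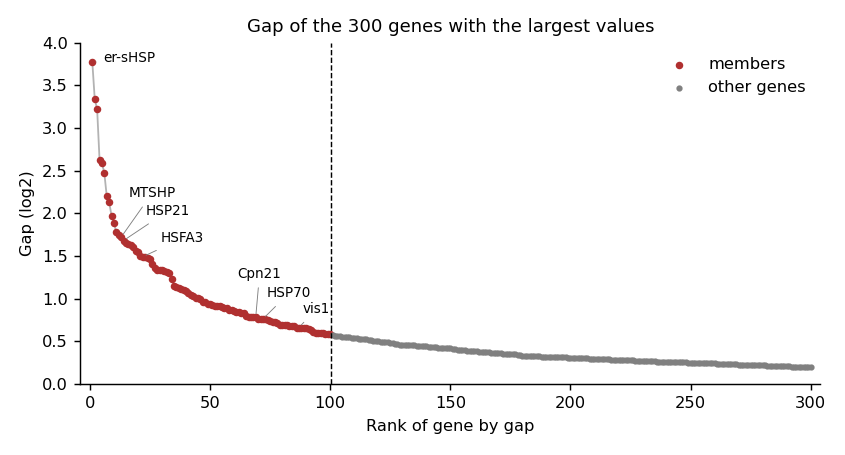
The gap (log2, y axis) is plotted against rank for the 300 genes with the largest gaps, with the 100 peak genes as red points, other genes as grey points, a dashed line at the bound and the heat shock genes of the group named. The gap is 3.77 for er-sHSP at rank 1 and passes through 0.58 and 0.57 at the bound without a step.

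Of 13 listed genes for heat shock proteins, heat stress factors or chaperones, 7 were peak genes, whereas the group holds 100 of all 21326 genes. This list was drawn up from symbols with the values known, so 7 of 13 is not a result about the class. It is not a search of all symbols, it includes vis1, which has the synonym sHSp20, and genes that carry only an identifier are not in it. er-sHSP, a small heat shock protein of the endoplasmic reticulum, had the largest gap of all named genes, with 5.40 and 4.31 at breaker, 9.75 and 9.62 at turning, 9.92 and 10.03 at pink, and 5.85, 5.82 and 5.47 at red ripe (log2 signal, as are all array values below). All 4 turning and pink arrays lay close together and far above the other 5, a 23.4-fold peak, and the breaker arrays differed from each other more than the turning or the pink arrays did.

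The small heat shock proteins of mitochondria and plastids had different shapes within the peak. MTSHP, the mitochondrial one, had 8.22 and 7.48 at breaker, 10.78 and 10.69 at turning, 9.94 at both pink arrays, and 7.77, 7.74 and 7.51 at red ripe, a 5.96-fold peak. Its turning arrays were above its pink arrays. A further MTSHP probe set also peaked, with 7.73 and 7.04 at breaker, 10.42 and 10.20 at turning, 9.47 and 9.28 at pink, and 7.44, 7.39 and 7.36 at red ripe. HSP21, the small heat shock protein of plastids, had 6.34 and 6.42 at breaker, 9.07 and 9.18 at turning, 10.23 and 9.96 at pink, and 7.30, 7.39 and 7.16 at red ripe, a 6.86-fold peak. For HSP21 the order within the peak ran the other way, with pink above turning, and the red ripe arrays stayed above the breaker arrays.

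vis1, a small heat shock protein known for its effect on the viscosity of tomato juice, had 7.05 and 6.94 at breaker, 9.53 and 9.37 at turning, 9.87 and 10.05 at pink, and 8.51, 8.50 and 8.71 at red ripe. Its red ripe arrays lay between the breaker arrays and the peak, and they set its small gap of 0.66. HSP70, a chaperone that refolds proteins with the use of ATP, had 8.84 and 8.80 at breaker, 10.13 and 10.21 at turning, 10.14 and 9.94 at pink, and 9.18, 9.17 and 8.96 at red ripe, a 2.21-fold peak. Cpn21, the co-chaperonin of the chloroplast folding machine, had 7.75 and 7.91 at breaker, 9.33 and 9.17 at turning, 9.02 and 9.12 at pink, and 8.24, 8.09 and 7.98 at red ripe, a 2.29-fold peak. HSP70 and Cpn21 thus had low peaks with little spread between arrays, and for Cpn21 both turning arrays were above both pink arrays. HSFA3, a heat stress transcription factor, had 4.68 and 4.33 at breaker, 6.79 and 7.17 at turning, 6.87 and 6.78 at pink, and 5.13, 5.29 and 5.03 at red ripe. Its peak was 4.21-fold, and turning and pink arrays overlapped.

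**Figure D2:**
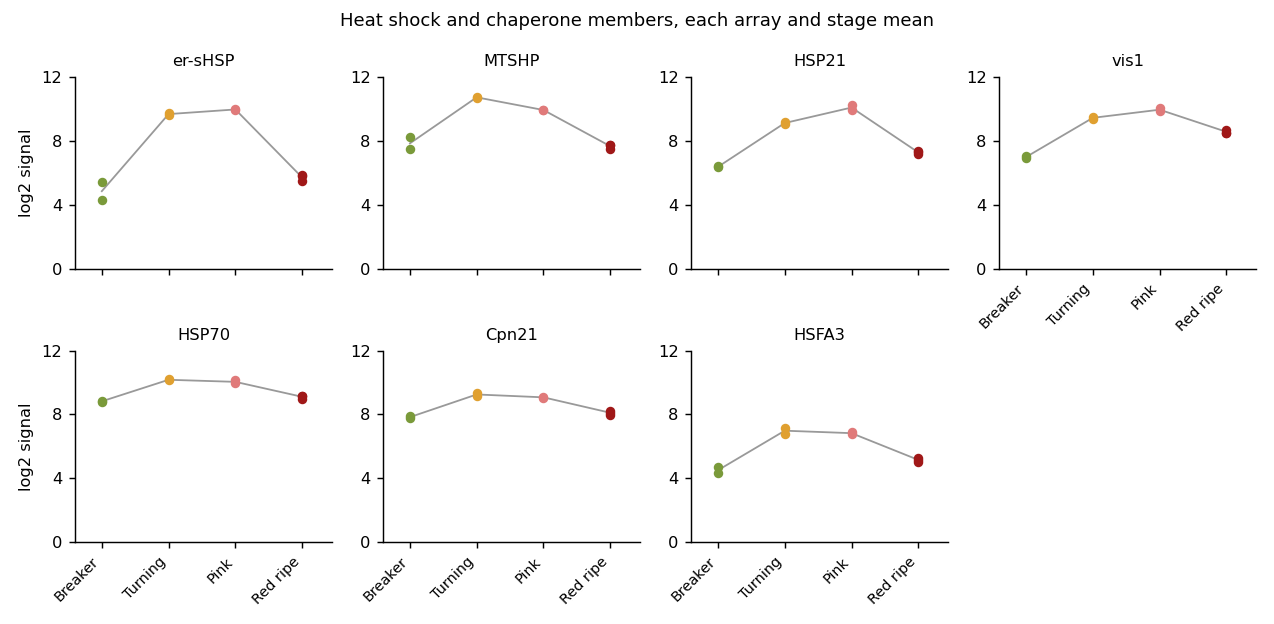
Each panel shows 1 heat shock or chaperone gene of the group, with every array as a point and the stage means joined by a grey line (log2 signal, y axis, by ripening stage, x axis). er-sHSP has the highest peak over its flanks at 23.4-fold and HSP70 the lowest at 2.21-fold, while vis1 stays at 8.50 to 8.71 at red ripe.

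The other 6 genes of the heat shock list were outside the group. HSP17.4, a small heat shock protein, had a gap of 0.36 with signals of 1.91 to 2.75 on the turning and pink arrays and 1.24 to 1.55 on the breaker and red ripe arrays, close to the bottom of the scale. Hsp90-1, a chaperone of signalling proteins, was high at turning alone, with 8.20 and 8.16 at breaker, 9.09 and 9.05 at turning, 8.10 and 8.08 at pink, and 7.74, 7.58 and 7.56 at red ripe. Its gap of -0.12 keeps it out, because the pink arrays lay below the breaker arrays. The constitutive or co-chaperone genes hsc70, DNAJ, HSC80 and hsc70.3 had gaps of -0.03 to -1.04. DNAJ, at 1.48 to 2.09, and hsc70, at 1.78 to 2.41 on 8 arrays and 4.15 on 1, were too close to the bottom of the scale for the lack of a peak to be read. HSC80, at 7.56 to 8.40, was well above it.

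Other peak genes with an annotation include an enzyme of phenylpropanoid metabolism, a protease inhibitor, a light-harvesting protein and a DNA repair enzyme. LOC101264046, described in the study's annotation as a protein like cinnamoyl-CoA reductase, an enzyme on the path to lignin, had 1.26 and 1.17 at breaker, 4.49 and 5.75 at turning, 6.59 and 6.77 at pink, and 1.27, 1.08 and 1.20 at red ripe. The difference in measured signal was 26.0-fold, but all 5 breaker and red ripe values were close to the bottom of the scale, where signal and background cannot be told apart, so the size of this fold is uncertain. LOC544001, described as a Kunitz trypsin inhibitor of the kind that blocks digestive proteases of insects, had 2.47 and 2.60 at breaker, 6.37 and 6.76 at turning, 5.44 and 5.98 at pink, and 3.24, 3.10 and 2.84 at red ripe. Its turning arrays were above its pink arrays and the peak was 10.1-fold. Breaker replicate 1 lay below the 75th percentile of all probe sets, so the size of this fold is uncertain. LOC101261911, described as a crossover junction endonuclease like EME1B, which cuts branched DNA during repair, had 3.84 and 2.75 at breaker, 7.22 and 6.94 at turning, 6.86 and 6.72 at pink, and 4.77, 5.25 and 4.17 at red ripe. Breaker and red ripe arrays of this gene were spread widely, yet all lay below turning and pink, a 7.58-fold difference.

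LOC101267774 carries the synonyms CAB3A, CAB3B and LHCP, names of chlorophyll a/b-binding proteins that harvest light in chloroplasts. It had 2.89 and 2.41 at breaker, 5.82 and 5.75 at turning, 5.36 and 5.91 at pink, and 1.78, 1.56 and 1.79 at red ripe, an 11.6-fold peak. Breaker replicate 2 and the red ripe arrays lay below the 75th percentile of all probe sets, so the size of this fold is uncertain. A further probe set of this gene stayed at 1.06 to 2.05 on all 9 arrays, and near-identical copies of these genes make the assignment of either uncertain. It was the only peak gene among 10 photosynthetic genes looked up. psaD, a photosystem I subunit, had 10.12 and 10.18 at breaker, 8.75 and 9.28 at turning, 9.13 and 9.22 at pink, and 7.17, 7.05 and 7.27 at red ripe. psaD was thus highest at breaker, where LOC101267774 was low, and both were lowest at red ripe. PSBR had a small gap of 0.09, with 6.60 to 7.01 at turning and pink and 6.22 to 6.51 at breaker and red ripe. LOC101264286, matched to CAB1C, had a gap of 0.20, with 1.85 to 2.09 against 1.39 to 1.65, close to the bottom of the scale. The remaining photosynthetic genes, psaD among them, had gaps of -2.89 to -0.06.

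Smaller peaks were found in genes with well-known products. FESOD, an iron superoxide dismutase that removes superoxide in plastids, had 8.06 and 8.60 at breaker, 9.64 and 9.53 at turning, 9.99 and 9.87 at pink, and 8.61, 8.75 and 8.56 at red ripe, a 2.42-fold peak. ERabp1, an auxin-binding protein of the endoplasmic reticulum, had 8.09 and 8.20 at breaker, 9.29 and 9.30 at turning, 9.30 and 9.35 at pink, and 8.60, 8.54 and 8.45 at red ripe. At 1.96-fold this was the smallest peak in the group, but one with close replicate arrays. sumo, a small modifier that is attached to other proteins, had 3.25 and 4.0 at breaker, 4.60 and 4.68 at turning, 5.07 and 4.63 at pink, and 3.40, 3.23 and 2.48 at red ripe, a 2.67-fold peak. POR2 had 6.76 and 6.72 at breaker, 7.76 and 8.22 at turning, 7.72 and 7.84 at pink, and 6.07, 6.14 and 5.58 at red ripe. Its red ripe arrays lay below its breaker arrays.

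Most of the group, 88 of 100 genes, has an identifier in place of a descriptive symbol on the array, the annotated LOC101264046, LOC544001, LOC101261911 and LOC101267774 among them. LOC101254946 had 7.02 and 7.43 at breaker, 10.87 and 10.77 at turning, 10.98 and 11.01 at pink, and 6.63, 6.53 and 6.87 at red ripe, the second-largest gap at 3.34. LOC101253845 had 6.0 and 5.36 at breaker, 8.96 and 8.93 at turning, 8.67 and 8.76 at pink, and 5.95, 5.79 and 6.04 at red ripe. LOC101255185 had 6.40 and 5.55 at breaker, 9.31 and 9.43 at turning, 9.52 and 9.44 at pink, and 6.66, 6.52 and 6.72 at red ripe. In all of these the peak spanned both stages, 15.5-fold for LOC101254946, 8.15-fold for LOC101253845 and 8.70-fold for LOC101255185. Every turning array was above every pink array for LOC101253845, and the reverse held for LOC101254946 and LOC101255185. None of these differences passed the test described below.

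Mean signal was also higher at turning than at pink in LOC101251845, LOC101251736, LOC101256232 and LOC101268020, all among the 20 largest gaps. The same held for LOC101250725, LOC101249515 and LOC101245464, whose values are given below. None of these genes passed the test of that difference described below. LOC101251845 had 3.13 and 3.12 at breaker, 5.69 and 6.38 at turning, 5.10 and 5.88 at pink, and 2.10, 2.10 and 2.50 at red ripe. LOC101251736 had 2.38 and 2.92 at breaker, 5.64 and 5.82 at turning, 4.80 and 5.62 at pink, and 2.70, 2.78 and 2.58 at red ripe. In both, the pink arrays were far apart, and the turning and pink values overlapped for LOC101251845 but not for LOC101251736. LOC101256232 had 7.56 and 7.53 at breaker, 9.86 and 9.66 at turning, 9.21 and 9.27 at pink, and 7.22, 7.28 and 7.37 at red ripe. LOC101268020 had 6.77 and 6.56 at breaker, 8.91 and 9.12 at turning, 8.33 and 8.85 at pink, and 5.72, 6.02 and 6.65 at red ripe. Turning arrays were above pink arrays for both LOC101256232 and LOC101268020. Adjusted p of pink against turning was 0.464 for LOC101251845, 0.441 for LOC101251736, 0.112 for LOC101256232 and 0.577 for LOC101268020 (limma).

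Of the genes given next, also among the 20 largest gaps, some overlapped across the peak and some were higher at pink. LOC101252214 had 4.08 and 4.03 at breaker, 6.0 and 6.07 at turning, 5.86 and 6.28 at pink, and 3.79, 3.68 and 3.64 at red ripe. LOC101245464 had 4.62 and 5.27 at breaker, 6.95 and 7.40 at turning, 6.82 and 7.26 at pink, and 4.66, 4.93 and 3.64 at red ripe. Both overlapped between turning and pink. LOC101266195 had 6.21 and 6.06 at breaker, 8.61 at both turning arrays, 9.10 and 9.28 at pink, and 6.62, 6.73 and 6.98 at red ripe. LOC101265170 had 2.90 and 3.18 at breaker, 4.78 and 4.96 at turning, 5.28 and 5.38 at pink, and 2.92, 3.00 and 2.81 at red ripe. For these last genes every pink array was above every turning array. Peaks of the 80 genes after the first 20 were 1.96-fold to 8.80-fold.

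Long non-coding RNAs numbered 3 of the 100 genes, and 97 were protein coding, against 2.66% long non-coding among all 21238 named genes found in RefSeq. LOC101249515 had 4.47 and 3.72 at breaker, 6.78 and 7.40 at turning, 6.92 and 6.77 at pink, and 4.01, 4.06 and 5.03 at red ripe. LOC101250573 had 6.95 and 8.74 at breaker, 9.79 and 9.78 at turning, 9.65 at both pink arrays, and 6.11, 6.41 and 5.95 at red ripe. Its breaker arrays differed by 1.79, the widest replicate range at breaker in the group. The third, LOC101249275, is described with the change between pink and turning. The array annotation used here does not say which strand these probe sets read, so overlapping transcripts cannot be told apart.

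Signals of most of the group were high on the array at all stages. Of the 100 genes, 83 lay above the 75th percentile of all probe sets on every array, against 36.0% of probe sets with 1 symbol. The rule chose genes high at turning and pink, so this difference is partly set by the choice. Median stage means of the peak genes ran 5.95, 7.52, 7.54 and 5.74 from breaker through turning and pink to red ripe, whereas those of probe sets with 1 symbol were 2.70, 2.26, 2.29 and 2.73 in the same order of stages. The median of named genes thus dipped where the peak genes were high. Signals of different probe sets are not levels that can be ranked as transcript amounts. In 7 genes, LOC101264046 and LOC101251142 among them, all 5 breaker and red ripe signals were below the 75th percentile, so that signal and background cannot be told apart there. Replicate arrays of the peak genes differed by a median of 0.17 in breaker, 0.16 in turning, 0.17 in pink and 0.26 in red ripe fruit. The choice favours genes with close turning and pink arrays, and the red ripe range is over 3 arrays.

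**Figure D3:**
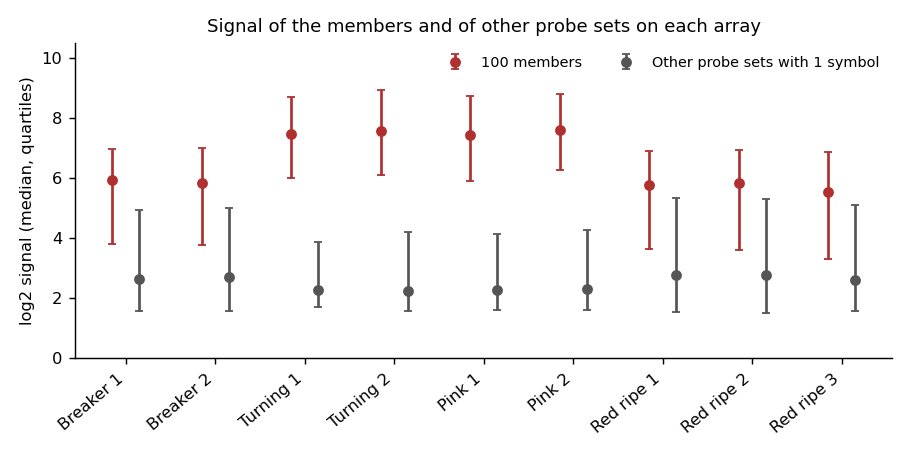
Points are the median and bars the quartiles of log2 signal (y axis) on each of the 9 arrays (x axis), in red for the 100 peak genes and in grey for the other probe sets with 1 symbol. Medians of the peak genes are 7.42 to 7.58 on the turning and pink arrays and 5.54 to 5.94 on the breaker and red ripe arrays, while those of the other probe sets are 2.25 to 2.29 and 2.61 to 2.77.

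Peak genes were found on all 12 chromosomes in the RefSeq annotation, from 4 on chromosome 10 to 13 on chromosome 3. Their median gene span was 3225 bases, against 3918.5 for all named genes found in RefSeq, and 12 of 100 spanned under 1000 bases, against 6.19%. er-sHSP, HSP21, LOC101254946 and LOC544001 were among these short genes. A few lay near each other. LOC101268307 and LOC101268020 on chromosome 9 had 1 annotated gene between them, and LOC101251736 and LOC101251142 on chromosome 2 had 2. HSP70 and the non-coding LOC101249515 on chromosome 11 had 7 genes between them, as did LOC101264586 and LOC544001, and LOC101246988 and LOC101244450 on chromosome 2 had 8. No test was made of this spacing.

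Whether the genes changed within the peak was asked by comparing pink with turning, a difference the choice of genes did not use for its direction. The rule takes the lowest turning or pink signal, which favours genes high at both stages and so partly limits the size of this difference. Peak means were higher at turning in 54 genes, higher at pink in 44 and equal in 2. Under limma's test with Benjamini-Hochberg adjustment over all 67795 probe sets and a fold above 2, 2 of 100 peak genes rose at pink, against 1.12% of all probe sets and 2.27% of those with 1 symbol. Likewise 2 fell, against 0.532% of all probe sets and 0.875% of those with 1 symbol. These counts are too small to set the group apart from the background. The median difference was -0.04, against -0.02 over all probe sets. Every pink array was above every turning array in 26 peak genes (16.0% of all probe sets and 21.9% of those with 1 symbol), and every turning array was above every pink array in 31 (17.9% of all probe sets and 17.2% of those with 1 symbol).

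LOC101243640 had 8.60 and 9.00 at pink, against 7.60 and 7.65 at turning. Both pink arrays were above both turning arrays, a difference of 1.17 ± 0.18 (SE, adjusted p = 0.0139, limma), with breaker and red ripe arrays at 5.48 to 5.96. LOC101252202 had 7.01 and 7.26 at pink, against 5.71 and 6.06 at turning. Its difference of 1.25 ± 0.22 (SE, adjusted p = 0.0245, limma) also came with pink arrays wholly above turning arrays. Without pink replicate 2 neither gene passed, at an adjusted p of 0.0516 for LOC101243640 and 0.0963 for LOC101252202. LOC101252202 also missed the threshold without breaker replicate 1 or 2 (adjusted p = 0.0507 each), turning replicate 1 (adjusted p = 0.0673) or red ripe replicate 1 (adjusted p = 0.0557). The number of genes that rose was 1 when any of these 5 arrays was left out and 4 without turning replicate 2. After quantile normalization the difference was 0.97 for LOC101243640 and 0.98 for LOC101252202, under the fold threshold.

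LOC101249275, a long non-coding RNA, fell at pink, with 8.87 and 8.98 at pink, against 10.18 and 10.20 at turning. The difference was -1.26 ± 0.16 (SE, adjusted p = 0.00772, limma), and it passed whichever single array was left out. At breaker it had 7.83 and 7.49, and at red ripe 7.13, 7.08 and 6.89, so pink lay partway down from the turning peak. LOC101251142 had 2.95 and 3.21 at pink, against 4.88 and 3.90 at turning. Its difference of -1.31 ± 0.28 (SE, adjusted p = 0.0497, limma) stood at the threshold on unequal turning arrays. It still passed when turning replicate 2 was left out, but not when any of the other 8 arrays was. Without turning replicate 1 its fall was under 2-fold, -0.82, and without the others the adjusted p was 0.088 to 0.145, which leaves 1 gene that fell without breaker replicate 1 or 2, pink replicate 1 or 2, or red ripe replicate 1, 2 or 3. The adjusted p was 0.0505 to 0.0754 under median centring, quantile and loess normalization.

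Over all probe sets, limma gave the arrays weights of 0.40 at turning and 0.57 at pink. Weights were 2.21 at breaker and 0.90 to 2.11 at red ripe. The median replicate range of probe sets with 1 symbol was 0.27 at turning and 0.22 at pink. At breaker it was 0.13, and over the 3 red ripe arrays 0.25. The narrower range of the peak genes cannot be set against these weights, because the rule favours genes whose turning and pink arrays agree. In a fit with these weights, none of the 4 genes past the test for pink against turning passed, with adjusted p of 0.123 to 0.200, nor in a fit of the turning and pink arrays alone, with adjusted p of 0.173 to 0.425. Calls fell over the whole array too, from 759 probe sets higher and 361 lower at pink. With the weights 192 and 46 were left, and with the turning and pink arrays alone 58 and 20. At an adjusted p alone, with no fold threshold, 3 peak genes rose at pink, against 1.47% of all probe sets and 2.97% of those with 1 symbol, and 3 fell, against 0.875% of all probe sets and 1.29% of those with 1 symbol. HSP21 then also rose at pink, by 0.97 ± 0.15 (SE, adjusted p = 0.0174, limma), and LOC101253425 fell, by 0.81 (adjusted p = 0.0222, limma). LOC101264046 had the largest difference in the group, 1.56 ± 0.33 (SE, adjusted p = 0.0535, limma), and did not pass. Its turning arrays, at 4.49 and 5.75, were far apart.

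Whether the genes came back to where they had started was asked by comparing red ripe with breaker. The rule fixes that both lie below the peak but not which is higher. It subtracts the highest breaker or red ripe signal, which favours genes low at both stages. The size of this difference is therefore partly limited by the choice. Of 100 peak genes 2 rose at red ripe, against 1.49% of all probe sets and 3.54% of those with 1 symbol, and 5 fell, against 1.24% of all probe sets and 2.82% of those with 1 symbol. The median difference was -0.025, against 0.01 over all probe sets, and 47 genes were above 0. Every red ripe array was above every breaker array in 30 genes (18.2% of all probe sets and 31.4% of those with 1 symbol), and every breaker array was above every red ripe array in 34 (14.9% of all probe sets and 17.8% of those with 1 symbol). In 90 of the 100 genes neither this comparison nor that of pink with turning passed, which does not show that they were level.

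vis1 stayed up at red ripe, with 8.51, 8.50 and 8.71 at red ripe, against 7.05 and 6.94 at breaker. The difference was 1.58 ± 0.14 (SE, adjusted p = 0.000357, limma), and it was past the threshold under every scaling tried and with any 1 array left out. Its red ripe signal was far above breaker and still below all turning and pink arrays. LOC101252202 had 4.50, 4.60 and 4.07 at red ripe, against 3.24 and 3.04 at breaker. It was the only gene past both tests, here by 1.25 ± 0.20 (SE, adjusted p = 0.00885, limma), and the call was lost without breaker replicate 2 (adjusted p = 0.109). After quantile and loess normalization its difference was 0.91 and 0.99, under the fold threshold. The number that rose was 5 without breaker replicate 1, 1 without breaker replicate 2 and 4 without red ripe replicate 3.

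LOC778315 fell furthest, with 2.97, 3.17 and 3.13 at red ripe, against 6.19 and 6.09 at breaker. The difference was -3.05 ± 0.14 (SE, adjusted p = 1.82e-05, limma), an 8.28-fold fall that passed under every scaling tried and with any 1 array left out. With 7.64 and 7.52 at turning and 7.80 and 8.05 at pink, its peak was lower over breaker than over red ripe. LOC101264586 had 4.79, 4.57 and 4.70 at red ripe, against 6.08 and 5.88 at breaker, a difference of -1.29 ± 0.13 (SE, adjusted p = 0.000978, limma) that passed under the same alternatives. DDTFR8 had 6.31, 6.35 and 6.28 at red ripe, against 7.45 and 7.29 at breaker. Its arrays were close within each stage, and the difference was -1.06 ± 0.12 (SE, adjusted p = 0.00162, limma). Without breaker replicate 1 it was -0.98, under the fold threshold.

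LOC101250725 had 2.31, 2.04 and 2.54 at red ripe, against 3.54 and 3.43 at breaker. The difference was -1.19 ± 0.17 (SE, adjusted p = 0.00626, limma), from a gene with 6.47 and 6.41 at turning and 5.67 and 5.99 at pink. Its red ripe signals lay below the 75th percentile, 2.57 to 2.75 over the arrays, where signal and background cannot be told apart, so the size of the fall is uncertain. It missed the threshold without breaker replicate 1 (adjusted p = 0.0686) or replicate 2 (adjusted p = 0.0562). LOC101264213 had 3.06, 2.74 and 3.26 at red ripe, against 4.49 and 3.84 at breaker, a difference of -1.14 ± 0.25 (SE, adjusted p = 0.0427, limma). It passed without either turning array and failed without any 1 of the other 7, at an adjusted p of 0.0545 to 0.359, and it failed after quantile normalization (adjusted p = 0.113). The number that fell was 3 without breaker replicate 1 or without breaker replicate 2. With no fold threshold 5 genes rose at red ripe, against 2.35% of all probe sets and 5.77% of those with 1 symbol, and 8 fell, against 1.69% of all probe sets and 3.78% of those with 1 symbol.

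**Figure D4:**
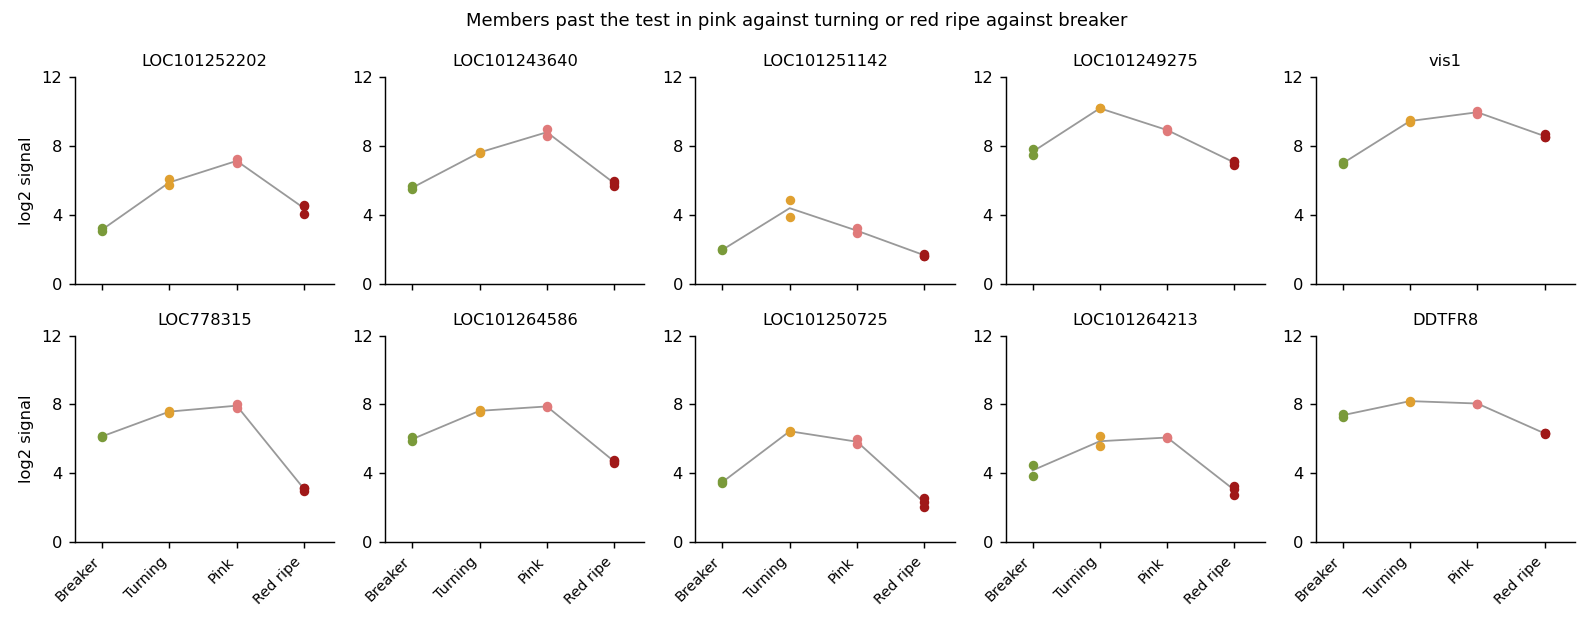
Each panel shows 1 peak gene past the test in pink against turning or in red ripe against breaker, with every array as a point and stage means joined by a grey line (log2 signal, y axis, by ripening stage, x axis). LOC778315 is at 2.97 to 3.17 at red ripe and 6.09 to 6.19 at breaker, vis1 at 8.50 to 8.71 and 6.94 to 7.05.

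**Figure D5:**
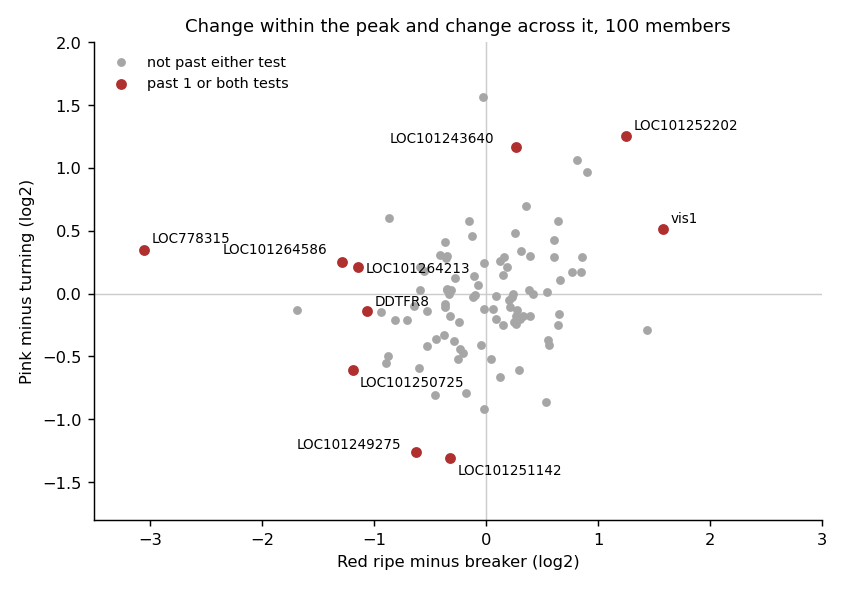
For each of the 100 peak genes the difference of pink minus turning (log2, y axis) is plotted against red ripe minus breaker (log2, x axis), with genes past either test in red. Most points lie around 0 on both axes, LOC778315 stands alone at -3.05 on the x axis, and LOC101252202 is at 1.25 on both.

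Among the 13 heat shock and chaperone genes, 0 passed the test with the fold threshold for pink against turning, and vis1 was the 1 that passed for red ripe against breaker. Over all probe sets 1.12% rose and 0.532% fell at pink, and 1.49% rose and 1.24% fell at red ripe. Among probe sets with 1 symbol the shares were 2.27%, 0.875%, 3.54% and 2.82% in the same order. Counts this small among 13 genes are no result about the class. With an adjusted p alone, HSP21 rose and Hsp90-1 fell at pink, Hsp90-1 by 0.98 (adjusted p = 0.00953, limma). At red ripe HSP21 rose by 0.90 ± 0.14 (SE, adjusted p = 0.00827, limma), and Hsp90-1 fell by 0.55 (adjusted p = 0.0422, limma). er-sHSP had a red ripe minus breaker difference of 0.86 ± 0.28 (SE, adjusted p = 0.19, limma) on uneven breaker arrays, and MTSHP one of -0.18 ± 0.21 (SE, adjusted p = 1, limma). Of the 10 photosynthetic genes, CAB4, PsbQ and psaD fell at red ripe with the fold threshold, against 1.24% of all probe sets and 2.82% of those with 1 symbol. PSBP fell with an adjusted p alone, by 1 (adjusted p = 0.00412, limma). LOC101267774 fell by 0.94 at red ripe, under the fold threshold and from signals close to the bottom of the scale (adjusted p = 0.0402, limma), and its pink minus turning difference was -0.15 (adjusted p = 0.821, limma).

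Where several probe sets stood for a gene, the others did not always follow. Cpn21 had a further probe set with a gap of 0.59, at 6.52 and 6.71 at breaker, 7.74 and 7.61 at turning, 7.54 and 7.44 at pink, and 6.85, 6.63 and 6.63 at red ripe. Cpn21 and MTSHP were thus peaked in both of their probe sets. For LOC101262608, LOC101248395, LOC101262727, LOC101268499 and LOC101267774 the other probe sets had gaps of -2.0 to 0.14, so the peak of those genes rests on 1 probe set each.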

How the data were processed

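The authors deposited log2 signals per probe set, made with RMA in Affymetrix Expression Console according to the submitters' processing notes. The 9 arrays were used as deposited, with no filter. Their number limits the precision. Stage means were fitted for each of the 67795 probe sets with limma 3.58.1 in R 4.3.3 (lmFit, eBayes; 5 residual and 3.65 prior degrees of freedom), and calls needed a Benjamini-Hochberg adjusted p under 0.05 over all probe sets and a fold over 2. The fit was tested on simulated data. The peak genes and lists were chosen with earlier results of these data known. Probe sets with 1 symbol numbered 23194. Genes named are those with the 20 largest gaps, ranks 96 to 105, those past a test and near neighbours. Genes with a descriptive symbol or annotation were added after their values were seen. RefSeq assembly SLM_r2.1 gave biotypes, spans and chromosomes, and all 100 genes matched. The planned classes by gene description, the seed markers and the promoter motifs were not analysed here.

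Alternatives were a replicate block, other scalings, a signal filter, trended moderation, array weights, 2-stage fits, other thresholds and probe sets, and each array left out. Same-numbered arrays did not deviate together (correlations -0.01 to 0.09), so the block is no pairing.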

Additional observations from a re-analysis of the deposited data

How the results depend on the processing

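No called direction was reversed. With the replicate number as a block, which pairs arrays by number only, 1 gene fell at pink and 4 rose at red ripe (3 rose at pink and 5 fell at red ripe). Over all probe sets the block gave 555 higher and 248 lower at pink, and 1110 higher and 796 lower at red ripe. As reported these were 759, 361, 1008 and 843. Genes that rose at pink, 2 as reported, numbered 5 with median centring, 1 with quantile normalization, 4 without the 33.3% of probe sets with the lowest signal, 0 with array weights, 0 with only both stages compared and 4 at the methods' unadjusted thresholds, and 1 to 4 when arrays were left out in turn. Genes that fell at pink, 2 as reported, numbered 1 with median centring, quantile or loess normalization, 1 with trended robust moderation, 0 with array weights and 0 with only both stages compared, and 1 to 2 without single arrays. Genes that rose at red ripe, 2 as reported, numbered 1 with quantile or loess normalization and 5 with no fold threshold, and 1 to 5 without single arrays. Genes that fell there, 5 as reported, numbered 9 with loess normalization and 8 with no fold threshold, and 3 to 5 without single arrays. Over all probe sets, 862 rose at pink with median centring, 811 with quantile normalization and 843 without the lowest signals, against 759. Array weights gave 192, only both stages 58 and unadjusted thresholds 1281. At pink 316 to 539 fell under median, quantile or loess scaling, 46 with array weights and 20 with only both stages, against 361. At red ripe 680 rose with quantile and 762 with loess normalization, against 1008, and 1041 fell with loess, against 843. The cause of these shifts was not tested, except that dropping the fold threshold admits more genes by construction. Of the 100 peak genes, 62 were also chosen by the difference of means, 71 after quantile and 76 after loess normalization, 98 after median centring, and 81 to 99 without single arrays. Over the 11 tests of named genes under the 17 alternatives that could lose a call, 143 of 187 calls held and 44 were lost.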

Other observations

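The peak was also found in probe sets to which the annotation used here gives no gene symbol. Of 114 probe sets with a gap over 1, 46 had 1 symbol and 68 had none, and 153 without a symbol reached the smallest gap of the peak genes. Probe set 20285156, which the study's annotation describes as a class IV heat shock protein, had 4.13 and 4.83 at breaker, 9.61 and 9.69 at turning, 10.30 and 10.64 at pink, and 6.13, 6.17 and 6.09 at red ripe (log2 signal). Its gap of 3.44 was below that of er-sHSP, and its red ripe arrays lay above its breaker arrays. Probe set 20424275, described there as an unknown protein, had 2.80 and 3.17 at breaker, 7.12 and 7.53 at turning, 7.73 and 7.81 at pink, and 3.60, 3.68 and 3.24 at red ripe. Both were higher at pink than at turning on every array.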
